A study of Mus musculus with 8 samples.

Results

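The genes described here are the ligands and receptors of platelet-derived growth factor (PDGF): Pdgfa, Pdgfb, Pdgfc and Pdgfd, which encode the 4 ligand chains, and Pdgfra and Pdgfrb, which encode the receptors alpha and beta. They were taken by gene symbol, as all probe sets annotated to exactly 1 of the 6 symbols. This gave 14 of the 45037 probe sets on the arrays and 6 of 18193 annotated genes. A probe set is a group of short array probes that reports on 1 transcript region.

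The arrays measured RNA of whole mouse aorta. The 4 mutant arrays came from animals labelled SRF-flex2neo -SM22CreERT2ki/+. These carry a conditional gene of serum response factor (SRF) and a tamoxifen-inducible Cre recombinase knocked into 1 allele of Tagln (SM22). Tagln is a smooth muscle gene, so the deletion is aimed at smooth muscle. Whether other cells of the wall keep Srf was not measured here. The 4 control arrays came from SRF-flex2neo littermates, for which the labels give no Cre. All animals were 4 months old, received 1 mg of tamoxifen intraperitoneally for 3 days and were killed 8 days later. The array titles divide the arrays into set 1 (controls 1 and 2, mutants 1 and 2) and set 2 (controls 3 and 4, mutants 3 and 4). The labels explain neither the set number nor whether each array is a separate animal, so p-values measure the spread between arrays, which may be technical.

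PDGF chains are secreted as dimers and signal through receptor tyrosine kinases. PDGF-A and PDGF-C bind receptor alpha, PDGF-B binds both receptors, and PDGF-D binds mainly receptor beta. In the vessel wall, endothelial cells release PDGF-B, smooth muscle cells and pericytes carry receptor beta, and fibroblasts carry receptor alpha. PDGF-BB is a standard stimulus for cultured smooth muscle cells to divide, migrate and lower their contractile genes. Its signal reaches SRF-bound genes through ERK and the ternary complex factors, which compete with the cofactor myocardin for SRF.

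Values are log2 signals as deposited, so a difference of 1 is a doubling. Array medians were between 3.72 and 3.98, and the number of arrays limits the precision. Mutant 2 stood apart, with correlations of 0.961 to 0.974 to the other arrays, against 0.983 to 0.997 among those. Srf itself was between 10.15 and 10.52 in controls and between 9.54 and 10.34 in mutants (difference -0.20, SE 0.19, limma adjusted p = 0.686). The place of its probes relative to the deleted part is not known here, so this does not check the deletion. The labelled tissue showed high smooth muscle markers in all arrays, such as Myh11 at 14.69 ± 0.04 in controls (SD, n = 4) and 14.48 ± 0.06 in mutants. Control 3 stood above the other controls in fibroblast markers, as described with Pdgfra. It was also the highest control in macrophage and adipocyte markers, and not in endothelial markers.

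Receptor alpha was the PDGF gene with the largest difference between mutant and control aorta, and the ligands and receptor beta differed less. None of the 14 probe sets passed limma's adjusted threshold of 0.05 in the comparison of mutants with controls (lowest adjusted p = 0.461), where 0% of the 27029 probe sets tested did. At an unadjusted p under 0.05 there were 2 of 14, both of Pdgfra, against 9.55% of all probe sets tested. The groups did not overlap in 0 of the 14, against 3% of all probe sets tested. Of the 14 probe sets, 7 were higher and 7 lower in mutants. Their median difference was -0.06, and that of all probe sets tested was -0.04.

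**Figure D1:**
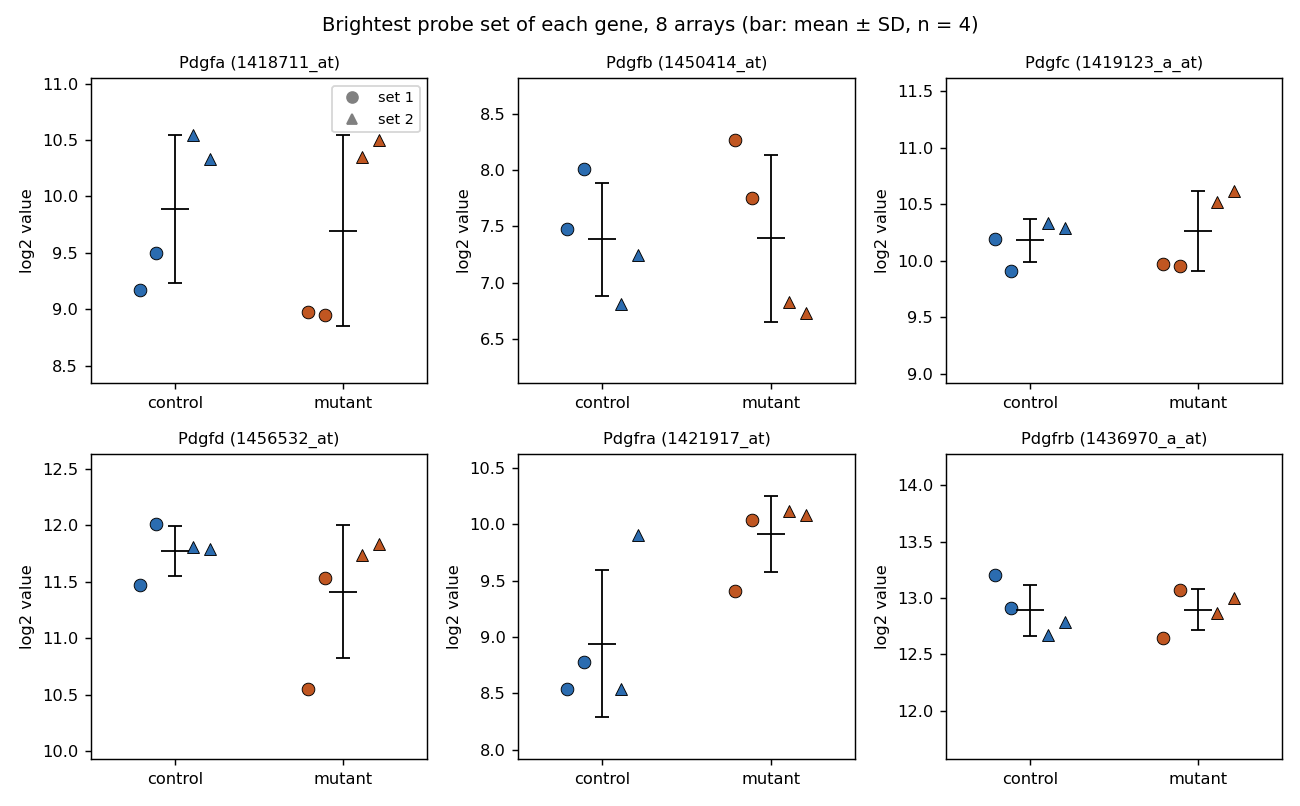
Log2 value (vertical axis) of the brightest probe set of each of the 6 genes in the 4 control and 4 mutant arrays (horizontal axis). Circles are set 1, triangles are set 2, and bars are mean ± SD (n = 4). Every panel spans the same number of log2 units. For Pdgfra, 3 controls lie below all mutants and control 3 lies among them, and for Pdgfa the 2 sets lie apart in both groups.

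Of the ligands, Pdgfa encodes the chain that dimerizes to PDGF-AA, which smooth muscle and endothelial cells make. Its brighter probe set, 1418711_at, read 9.50 in control 1, 9.17 in control 2, 10.33 in control 3 and 10.54 in control 4. In mutants 1 to 4 it read 8.95, 8.98, 10.50 and 10.35. Both mutants of set 1 lay below both controls of that set, and in set 2 the groups overlapped. The means were 9.89 ± 0.65 (SD, n = 4) for controls and 9.69 ± 0.85 for mutants, which differed by -0.19 (SE 0.12, 95% confidence interval -0.46 to 0.08, limma adjusted p = 0.598). The second probe set, 1449187_at, read 9.69, 9.67, 9.71 and 9.97 in controls 1 to 4 and 9.26, 9.15, 9.99 and 9.71 in mutants 1 to 4. It differed by -0.23 (SE 0.13, adjusted p = 0.582), with -0.48 in set 1 and 0.01 in set 2. The annotation ties both Pdgfa probe sets to the same transcript accession.

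Pdgfb encodes the chain that recruits pericytes and smooth muscle to new vessels when released by endothelium. Its brighter probe set, 1450414_at, read 8.01, 7.48, 7.25 and 6.81 in controls 1 to 4. In mutants 1 to 4 it read 7.75, 8.27, 6.73 and 6.83. The highest array was mutant 2 and the lowest mutant 3, so the mutants enclosed the controls. The means were 7.39 ± 0.50 and 7.40 ± 0.74, and the difference was 0.01 (SE 0.20, 95% confidence interval -0.48 to 0.49, limma adjusted p = 0.991). It was -0.15 without mutant 2. The dimmer probe set, 1450413_at, lay between 3.83 and 4.77 in all arrays and differed by -0.16 (SE 0.15).

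Pdgfb readings were set beside the endothelial markers, of which 9 of 10 tested were higher in mutants, with a median difference of 0.95. Relative to its mean over the 8 arrays, the endothelial list was at -0.23 and 0.05 in controls 1 and 2 and at 0.96 and 1.48 in mutants 1 and 2. In set 2 it was at -0.61 and -0.99 in controls 3 and 4 and at -0.41 and -0.25 in mutants 3 and 4. All mutants of a set thus lay above its controls for the endothelial list, and Pdgfb itself did not divide that way in either set. Platelets, which store PDGF, had 4 markers tested, all higher in mutants (median 0.91, and 0.50 without mutant 2), with list means of -1.80 to 0.25 in controls and -0.51 to 1.49 in mutants. The part of either cell type in the Pdgfb values was not tested. In RNA of whole tissue, more cells of a type and more RNA per cell cannot be told apart.

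**Figure D2:**
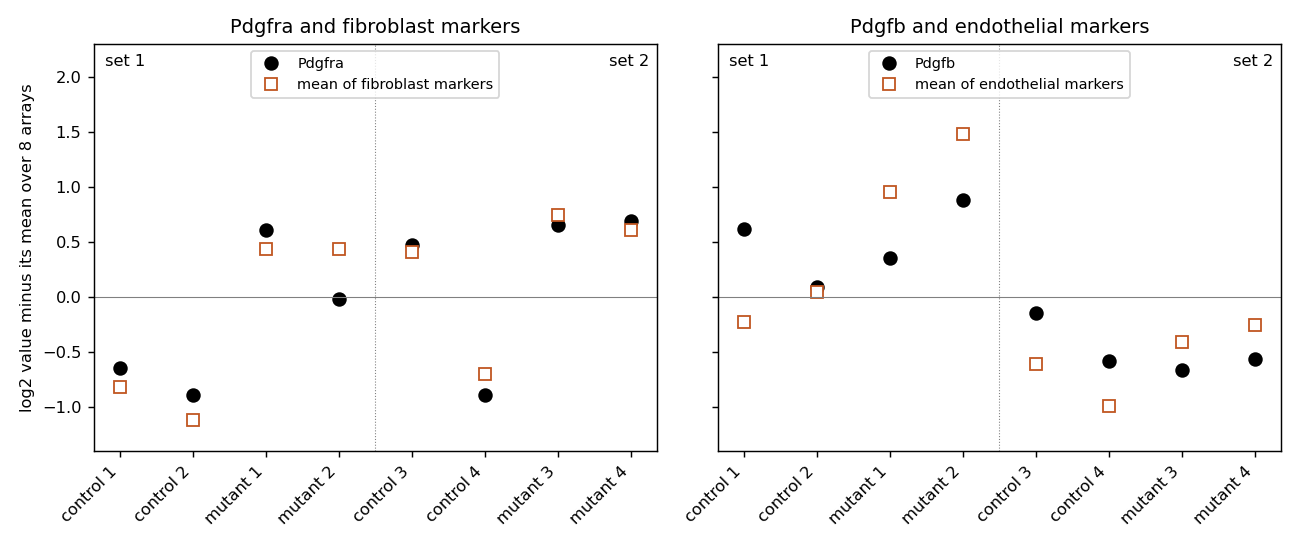
Log2 value minus its mean over the 8 arrays (vertical axis) in each array (horizontal axis, set 1 left of the dotted line). Filled circles are the brightest probe set of Pdgfra (left) or Pdgfb (right), and open squares the mean of 9 fibroblast or 10 endothelial markers. Pdgfra and the fibroblast mean are low in controls 1, 2 and 4 and high in control 3, while Pdgfb is above the endothelial mean in controls and below it in mutants.

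Pdgfc encodes a ligand of receptor alpha that is secreted in latent form, with a CUB domain that proteases such as tissue plasminogen activator remove. Its brighter probe set, 1419123_a_at, read 9.91, 10.19, 10.29 and 10.33 in controls 1 to 4 and 9.95, 9.97, 10.62 and 10.52 in mutants 1 to 4. The 2 highest arrays were the mutants of set 2, and in set 1 the groups overlapped. The means were 10.18 ± 0.19 for controls and 10.27 ± 0.35 for mutants, which differed by 0.09 (SE 0.10, 95% confidence interval -0.15 to 0.32, limma adjusted p = 0.739). The second probe set, 1449351_s_at, read 8.20, 8.19, 8.42 and 8.36 in controls 1 to 4 and 8.14, 8.08, 8.67 and 8.50 in mutants 1 to 4. It differed by 0.06 (SE 0.09, adjusted p = 0.810). Mutants were below controls in set 1 (-0.09) and above them in set 2 (0.20), with no overlap within either set.

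Pdgfd encodes the other latent ligand, which binds receptor beta, and the mutant means of its 3 probe sets were below the control means. Mutant 2 was the lowest array in the 2 brighter ones. The brightest, 1456532_at, read 12.01, 11.47, 11.79 and 11.81 in controls 1 to 4 and 11.53, 10.55, 11.83 and 11.74 in mutants 1 to 4. Mutant 2 lay below every other array, and the other 3 mutants lay within the controls' range. The means were 11.77 ± 0.22 and 11.41 ± 0.59, a difference of -0.36 (SE 0.25, 95% confidence interval -0.96 to 0.24, limma adjusted p = 0.630). Without mutant 2 it was -0.09.

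The second probe set of Pdgfd, 1426319_at, read 10.23, 10.23, 9.22 and 9.20 in controls 1 to 4 and 9.83, 8.77, 8.91 and 9.21 in mutants 1 to 4. Each mutant of set 1 was below both controls of that set, and in set 2 mutant 3 was below both controls while mutant 4 lay between them. The difference was -0.54 (SE 0.26, 95% confidence interval -1.16 to 0.08, adjusted p = 0.558), and -0.25 without mutant 2. The dimmest, 1446691_at, lay between 3.22 and 5.80 and differed by -0.57 (SE 0.40), and by -0.21 without mutant 2.

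The 250 bases before the annotated start were searched for the CArG box, the element that SRF binds (CC, 6 letters A or T, GG), since the study deletes Srf. RefSeq windows (GRCm38.p6) were found for 4 of the 6 genes. TATAAA and the GC box GGGCGG were also searched. Matches on both strands counted. A CArG box was found in 1 of the 5 windows, that of Pdgfc, 17 bases before the start, and in 1.47% of 32851 mouse windows of the same length. The Pdgfd window held a CArG box with 1 mismatch 99 bases before the start, as did 17.5% of all windows, and TATAAA 160 bases before it, as did 12.4%. The GC box was found in both Pdgfa windows, once in one and 2 times in the other, and in 32.7% of all windows. The Pdgfra window held none of these motifs. The Pdgfc and Pdgfd windows are shown for their CArG-type matches and that of Pdgfra because this gene had the largest difference. They lie at chr3:81036166-81036415, chr9:6168236-6168485 and chr5:75152001-75152250, all on the plus strand, and are written 5′ to 3′ with matches in capitals.
Pdgfc: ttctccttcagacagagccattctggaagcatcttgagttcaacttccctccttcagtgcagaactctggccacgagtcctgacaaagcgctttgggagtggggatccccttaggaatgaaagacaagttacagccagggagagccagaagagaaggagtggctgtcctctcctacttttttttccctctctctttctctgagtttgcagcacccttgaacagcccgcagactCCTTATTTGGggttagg
Pdgfd: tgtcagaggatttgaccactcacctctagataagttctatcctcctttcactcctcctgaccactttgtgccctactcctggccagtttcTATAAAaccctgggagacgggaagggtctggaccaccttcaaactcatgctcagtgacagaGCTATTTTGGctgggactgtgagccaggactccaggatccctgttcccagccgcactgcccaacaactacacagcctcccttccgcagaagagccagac
Pdgfra: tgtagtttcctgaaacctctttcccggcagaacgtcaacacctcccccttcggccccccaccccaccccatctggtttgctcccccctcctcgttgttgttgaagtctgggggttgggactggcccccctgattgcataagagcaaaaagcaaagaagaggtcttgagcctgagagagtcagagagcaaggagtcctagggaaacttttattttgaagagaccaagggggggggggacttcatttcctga
A match is a description of the letters and not a measured binding site. The difference was 0.09 for Pdgfc and -0.36 for Pdgfd in the brightest probe sets, and both intervals include 0.

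Pdgfra encodes receptor alpha, the receptor of PDGF-A and PDGF-C, and in the artery it is a marker of adventitial fibroblasts. Its brightest probe set, 1421917_at, read 8.78, 8.54, 9.90 and 8.54 in controls 1 to 4. In mutants 1 to 4 it read 10.04, 9.41, 10.08 and 10.12. The controls other than control 3 lay below every mutant, and control 3 lay above mutant 2. The means were 8.94 ± 0.65 (SD, n = 4) for controls and 9.91 ± 0.34 for mutants. Mutants were higher by 0.97 (SE 0.29, 95% confidence interval 0.27 to 1.67), or 1.96-fold. The limma p was 0.0133 and the adjusted p 0.461, so it did not pass over all probe sets. By exact permutation of the 8 arrays (two-sided) p was 0.0571, and no p below 0.0286 can be had. Within set 1 mutants were higher by 1.06 and within set 2 by 0.88.

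The second probe set of Pdgfra, 1438946_at, read 5.64, 5.58, 7.19 and 5.88 in controls 1 to 4 and 6.75, 6.37, 7.05 and 7.08 in mutants 1 to 4. Again 3 controls lay below all mutants, and here control 3 was the highest array. It differed by 0.74 (SE 0.28, 95% confidence interval 0.07 to 1.41, limma adjusted p = 0.506). The third, 1421916_at, read 3.12, 2.95, 3.18 and 2.55 in controls 1 to 4 and 5.00, 3.13, 3.73 and 3.10 in mutants 1 to 4. This probe set is close to the lowest mean kept by the filter (2.97), and mutant 1 was its highest array. It differed by 0.79 (SE 0.41, adjusted p = 0.570), and by 0.37 without mutant 1.

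In the 2 brighter Pdgfra probe sets, leaving out control 3 moved the difference more than leaving out any other array. Without control 3 the difference was 1.26 (SE 0.19, limma adjusted p = 0.131) in 1421917_at and 1.04 (SE 0.14, adjusted p = 0.108) in 1438946_at. Without control 4 these were 0.72 and 0.52, the lowest values on leaving out 1 array. Without mutant 2 they were 1.08 and 0.77. None of these passed over all probe sets.

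**Figure D3:**
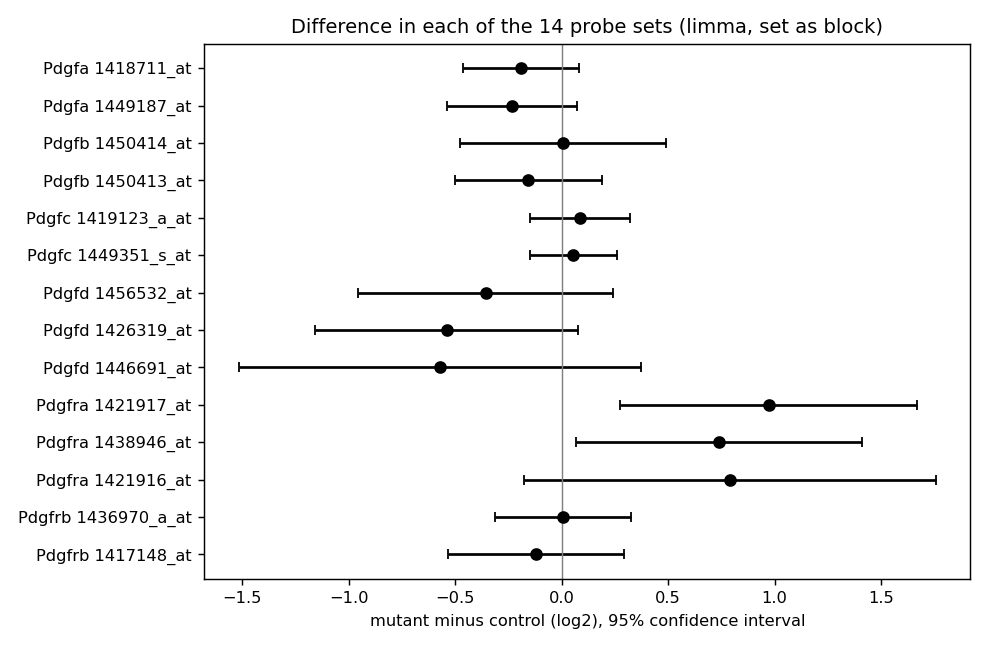
Mutant minus control difference on the log2 scale (horizontal axis) with its 95% confidence interval from limma, for the 14 probe sets of the 6 genes (vertical axis), n = 4 arrays per group. The intervals of Pdgfra 1421917_at and 1438946_at lie above 0 before adjustment, and the other 12 include 0.

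Fibroblast markers were set beside Pdgfra. All 9 tested were higher in mutants, with a median difference of 1.22. Among them were Dpt (1.03, SE 0.21), Scara5 (1.58, SE 0.33), Pi16 (0.92, SE 0.20) and Cd34 (1.22, SE 0.27), none passing limma's adjusted threshold (adjusted p = 0.376 for Dpt and 0.384 for the other 3). The mean of the list, relative to its mean over the 8 arrays, was -0.82, -1.12, 0.41 and -0.70 in controls 1 to 4 and 0.43, 0.44, 0.75 and 0.61 in mutants 1 to 4. Pdgfra on the same scale was at -0.65, -0.89, 0.47 and -0.89 in controls and at 0.61, -0.02, 0.65 and 0.69 in mutants. Control 3 was the high control in both. Taken relative to the fibroblast mean of the same array, Pdgfra differed between mutants and controls by -0.14, with -0.34 in set 1 and 0.06 in set 2. The part of fibroblasts in the Pdgfra values was not tested. Control 3 was also the highest control in macrophage markers, all 9 of which were higher in mutants.

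The genes most like Pdgfra over the 8 arrays, after the mean of each set was subtracted, were Smoc2, Mmp3 and Olfml3, which encode a matricellular calcium-binding protein, stromelysin-1 and an olfactomedin-like secreted protein. Their Pearson correlations were 0.990, 0.990 and 0.988 over 8 arrays, and 83 of 12170 genes reached 0.9. The differences of these 3 genes between mutants and controls were 1.09 (SE 0.30), 1.27 (SE 0.35) and 1.22 (SE 0.32), and none passed limma's adjusted threshold. The correlation keeps the difference between genotypes, so a difference in the direction of that of Pdgfra follows from the choice of these genes. On leaving out 1 array, between 0 and 2 of the 3 stayed among the 3 most alike, and without subtracting set means 1 did.

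Pdgfrb encodes receptor beta, the main PDGF receptor of smooth muscle cells and pericytes, and it was nearly level between the groups. Its brighter probe set, 1436970_a_at, read 12.91, 13.20, 12.79 and 12.67 in controls 1 to 4 and 13.07, 12.65, 13.00 and 12.87 in mutants 1 to 4. The lowest array was mutant 2 and the highest control 2, and the groups overlapped in set 1, while in set 2 both mutants lay above both controls. The means were 12.89 ± 0.23 and 12.90 ± 0.18, a difference of 0.01 (SE 0.13, 95% confidence interval -0.31 to 0.32, limma adjusted p = 0.991). The second probe set, 1417148_at, read 10.16, 10.32, 9.79 and 9.56 in controls 1 to 4 and 10.13, 9.55, 9.95 and 9.71 in mutants 1 to 4. It differed by -0.12 (SE 0.17, 95% confidence interval -0.54 to 0.29), and by 0.05 without mutant 2.

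Markers of smooth muscle and pericytes, the cells that carry receptor beta, were set beside it. All 8 smooth muscle markers tested were lower in mutants, with a median of -0.26, and of -0.17 without mutant 2. Acta2 was nearly level, at -0.02 (SE 0.05). The lowest p values were those of Tagln (-0.29, SE 0.05), Myh11 (-0.21, SE 0.05), Cnn1 (-0.40, SE 0.10) and Des (-0.78, SE 0.30), which did not pass limma's adjusted threshold (adjusted p = 0.376 to 0.507). In Tagln the mutants also carry the Cre insertion. Of 6 pericyte markers tested, 3 were higher and 3 lower, with a median of -0.02. Cspg4, the NG2 proteoglycan of pericytes and smooth muscle, differed by -0.40 (SE 0.12) and Rgs5 by -0.09 (SE 0.08), neither passing. Higd1b and Abcc9, also pericyte markers, differed by 1.01 (SE 0.47) and -0.33 (SE 0.24), and did not pass. Without mutant 2 these were 0.51 and -0.06. Higd1b averaged 3.12 in controls, close to the lowest mean kept by the filter (2.97).

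Whether PDGF genes responded unequally was tested on the difference between 2 genes within each array, for 4 pairs of genes. Pdgfra minus Pdgfrb was -4.13, -4.66, -2.89 and -4.13 in controls 1 to 4 and -3.03, -3.24, -2.92 and -2.75 in mutants 1 to 4. Controls 1, 2 and 4 lay below all mutants and control 3 lay among them. The value was higher in mutants by 0.97, and the two-sided exact permutation test gave p = 0.114 (0.457 adjusted over the 4 pairs). Pdgfd minus Pdgfc was lower in mutants by 0.44 in size (-0.44, exact permutation p = 0.229, adjusted 0.457). It was -0.25 without mutant 2 and -0.27 without control 1. Pdgfa minus Pdgfb differed by -0.20 (exact permutation p = 0.743) and Pdgfb minus Pdgfrb by 0.00 (p = 1, exact permutation test). Pdgfa minus Pdgfb lay between 0.71 and 1.69 in set 1 and between 3.08 and 3.77 in set 2, so its test includes that spread. Exact permutation within sets gave p = 0.111 for Pdgfra minus Pdgfrb, 0.333 for Pdgfd minus Pdgfc and 0.5 for Pdgfa minus Pdgfb. Within sets no p below 0.0556 can be had. No pair was shown to respond unequally at this number of arrays. Differences between levels of different probe sets have no meaning by themselves and serve here only for comparison between arrays.

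The title sets were also compared. In the limma fit, 4 of the 14 probe sets, of Pdgfa, Pdgfb and Pdgfc, differed between sets at an adjusted p under 0.05, against 21.4% of all probe sets tested, and a count this close to the background is no result about the PDGF genes. Pdgfa 1418711_at averaged 9.15 in set 1 and 10.43 in set 2, a difference of 1.28 (SE 0.12, adjusted p = 0.00113), with no overlap between the sets. This probe set passed on leaving out each of the 8 arrays. The other Pdgfa probe set, 1449187_at, averaged 9.44 and 9.85, a difference of 0.40 that did not pass (adjusted p = 0.0666).

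Pdgfb 1450414_at averaged 7.88 in set 1 and 6.91 in set 2, a difference of -0.97 (SE 0.20, limma adjusted p = 0.0175). Both Pdgfc probe sets were higher in set 2, by 0.44 (SE 0.10, adjusted p = 0.0231) and 0.34 (SE 0.09, adjusted p = 0.0349). The Pdgfb and Pdgfc calls held on leaving out some arrays only, 4 of 8 for Pdgfb, 3 of 8 for Pdgfc 1419123_a_at and 1 of 8 for 1449351_s_at. Without mutant 2, 7 of the 14 probe sets passed, against 27.8% of all probe sets in that fit, and without mutant 1, 2 passed, against 14.9%. Leaving out control 1, control 4, mutant 3 or mutant 4 each left 1 that passed, where 12.5% to 15.1% of all probe sets did. In the fit of all 8 arrays the second probe set of Pdgfb (limma adjusted p = 0.0765) and the 3 of Pdgfd (adjusted p = 0.280, 0.126 and 0.0702) did not pass, nor did any of Pdgfra or Pdgfrb.

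**Figure D4:**
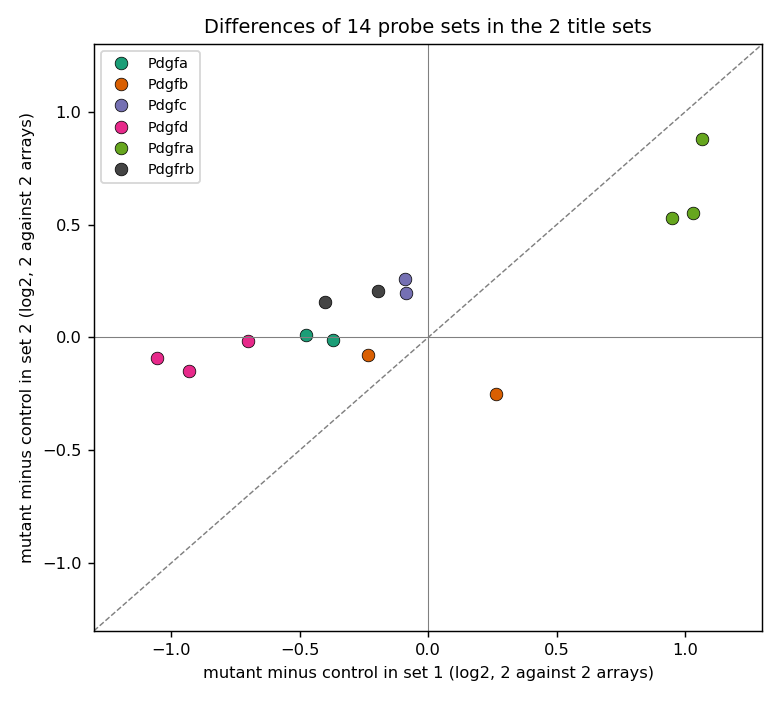
Mutant minus control difference (log2) in set 1 (horizontal axis) and in set 2 (vertical axis), 2 against 2 arrays each, for the 14 probe sets. The dashed line marks equal differences. The 3 Pdgfra probe sets are above 0 in both sets, and the 3 Pdgfd probe sets are at -0.70 to -1.06 in set 1 and at -0.15 to -0.02 in set 2.

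The difference between mutants and controls was also compared between the sets, by the interaction term. None of the 14 probe sets passed in limma at an adjusted p under 0.05, where 0.0518% of all probe sets did. At an unadjusted p under 0.05 there was 1 of 14, Pdgfa 1449187_at (interaction 0.48, SE 0.19, limma adjusted p = 0.824), against 5.12% of all probe sets. Pdgfd differed by -0.70, -0.93 and -1.06 in its 3 probe sets in set 1 and by -0.02, -0.15 and -0.09 in set 2, with interaction adjusted p = 0.824 in each. Without mutant 1, set 1 keeps only mutant 2 among its mutants, and 1 of the 14 then passed the interaction, against 10.2% of all probe sets in that fit.

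Other genes of the pathway were taken as 5 lists of 70 genes, 63 of them with a probe set of their own in the annotation and 60 tested, each by its brightest probe set. None of the 60 passed limma's adjusted threshold. At an unadjusted p under 0.05 there were 10, against 10.4% of the 12176 genes tested. Of the 60, 34 were higher in mutants, against 44.9% of all genes. These lists are described and not tested as lists.

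The list of ligand processing and binding holds proteases that activate the ligands and proteins that bind them. Of 8 tested, 3 were higher and 5 lower, with a median of -0.01. Nrp1, a co-receptor of vascular growth factors that also binds PDGF, read 9.29, 9.98, 10.29 and 9.69 in controls 1 to 4 and 10.42, 10.90, 10.76 and 10.54 in mutants 1 to 4. All mutants lay above all controls. The difference was 0.84 (SE 0.22, limma adjusted p = 0.420), which did not pass, and it was 0.71 without mutant 2. The heparan sulphate proteoglycan Hspg2 differed by -0.28 (SE 0.12), the proprotein convertase Pcsk5 by -0.40 (SE 0.24) and the receptor-like gene Pdgfrl by 0.28 (SE 0.29), none passing. Without mutant 2, Hspg2 differed by -0.17 and Pdgfrl by 0.55. By set, Pcsk5 differed by -0.925 (set 1) and 0.13 (set 2), and Hspg2 by -0.54 (set 1) and -0.01 (set 2).

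Of 17 adaptors and enzymes that act at the receptors, 8 were higher and 9 lower, with a median of -0.02. Fyn, a Src family kinase, read 6.39, 6.27, 7.41 and 7.16 in controls 1 to 4 and 7.45, 8.49, 7.91 and 7.79 in mutants 1 to 4. All mutants lay above all controls, mutant 1 by a small margin over control 3. The difference was 1.10 (SE 0.30, limma adjusted p = 0.433), and 0.79 without mutant 2. Pik3cb, a catalytic subunit of phosphoinositide 3-kinase, differed by -0.78 (SE 0.23), and the adaptors Nck1 and Shc1 by 0.37 (SE 0.12) and -0.22 (SE 0.08), none passing.

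The cascades downstream of the receptors, the Ras, ERK, Akt and STAT pathways, had 10 of 16 genes tested. Of these 6 were higher and 4 lower, with a median of 0.05. The SRF partner genes Elk4 and Elk1, ternary complex factors, differed by 0.20 (SE 0.10) and -0.36 (SE 0.26). The kinase gene Akt1 differed by -0.13 (SE 0.09) and the GTPase gene Nras by 0.16 (SE 0.14). None of these 4 passed. Without mutant 2 they differed by 0.13, -0.23, -0.07 and 0.05, in the same order.

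Attenuators of receptor signalling had 14 genes tested, 9 higher and 5 lower, with a median of 0.15 that was 0.18 in set 1 and -0.03 in set 2. Socs3, a cytokine signalling inhibitor, differed by 0.42 (SE 0.17), the phosphatase Ptpn1 by 0.16 (SE 0.07), the ERK phosphatase Dusp4 by 1.04 (SE 0.47) and the Ras pathway inhibitor Spry4 by 0.57 (SE 0.27), none passing limma's adjusted threshold. Dusp4 differed by 2.15 in set 1 and by -0.07 in set 2. Without mutant 2, Dusp4 differed by 0.65 and Spry4 by 0.31.

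Related growth factors and receptor kinases, the family of vascular endothelial growth factor and the kinases nearest to the PDGF receptors, had 11 tested, 8 higher and 3 lower. The median was 0.52, and 0.18 without mutant 2. By set, the medians were 0.83 (set 1) and 0.05 (set 2). Vegfc, a growth factor of lymphatic vessels, differed by 0.66 (SE 0.18), Kitl, the ligand of Kit, by 0.93 (SE 0.38), Vegfa by 0.52 (SE 0.26) and the lymphatic receptor gene Flt4 by 0.82 (SE 0.44). None passed. Without mutant 2, Kitl differed by 0.56, Vegfa by 0.24 and Flt4 by 0.39. For Vegfa, the controls read 7.27, 7.42, 7.42 and 7.28 and the mutants 7.75, 8.78, 7.45 and 7.50, with mutant 2 highest.

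**Figure D5:**
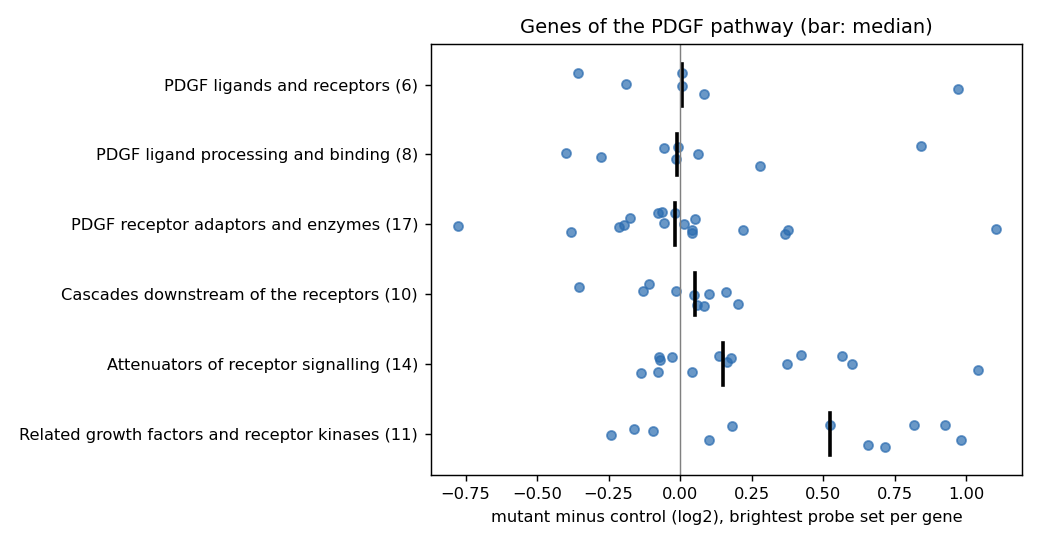
Mutant minus control difference (log2, horizontal axis) of single genes, each by its brightest probe set, for the 6 PDGF genes and the 5 pathway lists (number of genes in brackets). Bars are medians. The related growth factors and receptor kinases have a median of 0.52, and the other lists lie between -0.02 and 0.15.

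Markers of further cell types were also higher in mutants. All 9 macrophage markers were higher (median 1.01), with list means of at most 0.01 in controls and 0.12 to 1.07 in mutants. All 5 adipocyte markers tested were higher (median 1.33), and the median was 0.53 without mutant 2 and -0.40 in set 2. Of 5 Schwann cell markers 4 were higher (median 1.06), and the median was 0.36 without mutant 2. None of these marker genes passed limma's adjusted threshold, and the part of these cell types in the PDGF values was not tested.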

How the data were processed

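Total RNA of aorta from 8 samples (4 control, 4 mutant) was hybridized as biotinylated cRNA, made from 2 ug of RNA, to Affymetrix mouse arrays, per the labels' protocols. The authors deposited log2 values, which span 0.90 to 15.82; that they are log2 was read from the values. The submitters' processing notes name GCOS; how background was corrected and arrays were normalized is not given in the sources used. Values were used as deposited. The annotation gave 1 gene for 34945 of 45037 probe sets, several for 932 and none for 9160.

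Probe sets were ranked by mean over all arrays and the lowest 40% dropped, leaving 27029 probe sets and 12176 genes by brightest probe set. All 14 PDGF probe sets were kept. limma 3.58.1 in R 4.3.3 was fitted with genotype and title set as terms and a mean-variance trend, two-sided, with Benjamini-Hochberg adjustment over all probe sets tested. SE is the moderated standard error. The same fit with a genotype by set term gave the interaction. Exact permutation tests and figures used Python 3.11.15. Except where given as within sets, the permutations did not take the set into account. The procedure was tested on 5 simulated tables.

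The 13 lists were 5 pathway and 8 marker lists. The endothelial, macrophage, adipocyte, Schwann cell and platelet lists are given without naming single genes. Named genes are the 6 PDGF genes, Acta2 and the 4 genes with the smallest p in each other list. The 3 genes most like a member are also named. Of these last, those for Pdgfra are given in the report and those for the other 5 in the closing observations. The members and lists were chosen with earlier results of these data known. Replicate numbers follow sample order, so equal numbers pair nothing. Alternatives were other filters, normalizations and variance models, no set term, array weights, each array left out and each set alone. No per-sample column was left unused (0).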

Additional observations from a re-analysis of the deposited data

Results flagged for a closer look

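In Pdgfa probe set 1449187_at, control 4 (9.97) stood apart from the other 3 controls, with a gap to the nearest of 0.867 of the group's range, above Dixon's 95% critical value of 0.829 for 4 samples. In Pdgfra probe set 1421917_at, mutant 2 (9.41) stood apart from the other 3 mutants (gap 0.887 of the range). Chance sets apart about 1 in 20 groups, and each of the 14 probe sets has 2 such groups. The arrays of a group come from 2 title sets, which this rule does not take into account. Pdgfc probe set 1449351_s_at was lower in both mutants of set 1 than in both controls of that set, and higher in set 2. Its difference was larger in set 2 by 0.28 (SE 0.15), and limma's interaction test gave an adjusted p of 0.824.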

How the results depend on the processing

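The number of PDGF probe sets passing limma's adjusted threshold between mutants and controls was 0 in the reported fit and in all 18 alternatives, and that of pathway genes was 0 in all of them too. The number at an unadjusted p under 0.05 was 2, was 1 with no replicate block (without the set term, where 4.73% of all probe sets reached it), 1 in set 2 alone (5.49%), 3 in set 1 alone (7.11%), 3 with array weights (12.4%), and 1 to 4 on leaving out 1 array (5.28% to 10.9%), with 4 without mutant 2 (8.60%). The number differing between sets was 4, and 1 to 7 on leaving out 1 array (12.5% to 27.8%). The number passing the interaction was 0, and 0 to 1 on leaving out 1 array (0% to 10.2%). At an unadjusted p it was 1, was 0 with the stricter filter (4.54%) or quantile normalization (5.35%), 2 with median centring (5.48%), and 0 to 6 on leaving out 1 array (3.29% to 26.2%), with 6 without mutant 1 (26.2%). The cause of these shifts was not tested.

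The 3 Pdgfra probe sets kept their direction in every alternative run (0.72 to 1.26, 0.52 to 1.04 and 0.37 to 1.16), as did those of Pdgfd, Pdgfa 1418711_at and Pdgfb 1450413_at. The signs of small differences turned, with no call involved. Pdgfa 1449187_at was at 0.01 in set 2 alone. Pdgfb 1450414_at was at -0.065 with median centring, -0.10 with array weights, -0.25 in set 2 alone, and -0.15 to 0.15 on leaving out 1 array. Pdgfc 1419123_a_at was at -0.09 in set 1 alone. Pdgfc 1449351_s_at was at -0.0175 with median centring, -0.085 in set 1 alone, and -0.007 to 0.095 on leaving out 1 array. Pdgfrb 1436970_a_at was at -0.0675 with median centring, -0.195 in set 1 alone, and -0.061 to 0.129 on leaving out 1 array. Pdgfrb 1417148_at was at 0.00872 with array weights, 0.155 in set 2 alone, and -0.226 to 0.049 on leaving out 1 array. Pdgfa minus Pdgfb was at -0.69 to 0.33 on leaving out 1 array. The pair differences have no set term, so leaving out 1 array also leaves the 2 sets unequally represented in the groups. Within the sets Pdgfa minus Pdgfb differed by -0.635 (set 1) and 0.24 (set 2). Pdgfb minus Pdgfrb was at -0.0163 with the mean of all probe sets of each gene, and -0.37 to 0.26 on leaving out 1 array.

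Median centring moved the median difference of all probe sets from -0.04 to -0.11. With 4 arrays per group in 2 sets, differences near 0.3 lie within most of the intervals given. Dim probe sets, such as Pdgfra 1421916_at, are limited by their signal over background, which is not given here.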

Other observations

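The genes most like the other PDGF genes over the 8 arrays, by Pearson correlation after the mean of each set was subtracted, are given as a description of arrays that share 2 sets and 2 genotypes. For Pdgfa they were Eef1aknmt (0.967), Mapkbp1 (0.963) and Shd (0.956). For Pdgfb they were Usf2, a transcription factor (0.987), Ugcg, a glucosylceramide synthase (0.963), and Arrdc4 (0.958). For Pdgfc they were Scrn2 (0.986), Zfp94 (0.968) and Tmem50b (0.959). For Pdgfd they were Gli2, a transcription factor of hedgehog signalling (0.998), Rabgap1l (0.995) and Anapc7, a subunit of the anaphase-promoting complex (0.995). For Pdgfrb they were Rrbp1 (0.989), the ribosomal protein gene Rps18 (0.983) and Nosip (0.981).

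A correlation of at least 0.9 was reached by 107 of 12170 genes for Pdgfrb, 32 for Pdgfa, 20 for Pdgfc and 12 for Pdgfb, and by more genes for Pdgfd than for any of these. When 1 array was left out, or set means were kept, at most 2 of the 3 genes stayed among the 3 most alike for any of these members, and at most 1 for Pdgfa.

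Among the PDGF genes themselves, the set-centred correlation over the 8 arrays was 0.67 between Pdgfc and Pdgfrb (0.89 without mutant 2) and 0.68 between Pdgfa and Pdgfd (0.83 without mutant 2). Between Pdgfb and Pdgfrb it was -0.79 (-0.62 without mutant 2). Between Pdgfb and Pdgfc it was -0.69 (-0.80 without mutant 2), and between Pdgfa and Pdgfra -0.62 (-0.63 without mutant 2). Between Pdgfd and Pdgfrb it was 0.53 with all arrays and -0.59 without mutant 2. Between Pdgfb and Pdgfd it was -0.40 with all arrays and 0.59 without mutant 2. The remaining pairs of genes lay between -0.22 and 0.21 with all arrays, and between -0.41 and 0.44 without mutant 2. Probe sets of the same gene correlated at 0.98 for the 2 brighter ones of Pdgfra and 0.92 for Pdgfrb, and at 0.28 for Pdgfb.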
